A study of Mus musculus with 8 samples.

Results

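The genes described here handle iron and heme inside the cell. They are Fth1, Ftl1, Ncoa4, Hmox1, Blvrb, Slc40a1, Tfrc, Steap3, Slc11a1 and Slc11a2, chosen by symbol for their roles in iron uptake, storage, heme breakdown and export. The choice was made with earlier results of these data known. All 10 were found among the 55487 gene identifiers of the count table, and all 10 passed the filter on low counts. They were measured in mouse bone marrow-derived dendritic cells (BMDC), which were grown for 10 days in GM-CSF from wild type C57BL/6J females 6 to 8 weeks old. There were 4 libraries of untreated BMDC and 4 libraries of BMDC carrying ferroptotic cargo (BMDC-fer). For BMDC-fer, cells of the human T-cell leukemia line Jurkat were killed with 0.5 µM ML162, a GPX4 inhibitor, for 14 h. They were then offered to BMDC for 4 h, and the engulfing BMDC were sorted. Human RNA of the cargo may be present in the BMDC-fer libraries, and its part in the counts on mouse genes was not tested. The comparison asked how mouse transcripts differ in BMDC that have taken up ferroptotic cells. It also sets sorted, co-cultured cells against untreated cells that are not described as sorted, so that sorting, co-culture and engulfment cannot be told apart. GM-CSF cultures of bone marrow hold other myeloid cells beside dendritic cells. In bulk RNA, more cells of one kind and more RNA per cell cannot be told apart either.

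Cells take up iron bound to transferrin through the transferrin receptor, reduce it in the endosome and pass it to the cytosol, where the excess is stored inside the ferritin shell. Iron also arrives as heme, which phagocytes meet in the cells they engulf, and heme oxygenase opens the heme ring to release iron, carbon monoxide and biliverdin. Ferroportin is the known iron exporter of mammalian cells. Iron regulatory proteins bind hairpins called iron responsive elements (IREs) when iron is low, block translation where the hairpin lies in the 5′ untranslated region, and stabilize the messenger where it lies in the 3′ untranslated region. Many of the same genes are also transcribed under NRF2 and repressed by BACH1, a heme sensor.

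The hairpins are shown because iron acts through them after transcription, on translation or decay, and RNA counts report only part of that. A search of the sense strand of untranslated regions of GENCODE M21 transcripts looked for the loop CAGTG followed by A, C or T. The loop had to be closed by 5 paired bases above an unpaired C and at least 4 paired bases below it. This search found 7 sites in 4 members. The search covered 21951 protein-coding genes, of which 13 (0.0592%) held a match. Capitals mark the loop, sequences run 5′ to 3′ and coordinates are those of GRCm38. The sites lie on the plus strand for Fth1 and Tfrc, and on the minus strand for Ftl1 and Slc40a1.
Fth1, 5′ untranslated region, chr19:9982733-9982759: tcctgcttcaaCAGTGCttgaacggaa
Ftl1, 5′ untranslated region, chr7:45459780-45459806: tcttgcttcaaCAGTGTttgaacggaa
Slc40a1, 5′ untranslated region, chr1:45925466-45925492: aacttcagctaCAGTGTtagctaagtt
Tfrc, 3′ untranslated region, chr16:32631220-32631246: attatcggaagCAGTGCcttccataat
Tfrc, 3′ untranslated region, chr16:32631599-32631625: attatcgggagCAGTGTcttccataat
Tfrc, 3′ untranslated region, chr16:32631664-32631690: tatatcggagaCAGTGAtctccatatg
Tfrc, 3′ untranslated region, chr16:32631711-32631737: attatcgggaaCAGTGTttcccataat
The storage genes and the exporter thus carried 1 matching hairpin each ahead of the coding sequence, and the receptor carried 4 behind it. The other 6 members held no match to these letters, which says only that the letters were not found in their annotated untranslated regions. Slc11a2 is known to carry a less regular hairpin that this search does not cover.

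Libraries held 39326672 to 50532209 counts. A floor of 3 counts was 0.0594 to 0.0763 CPM (counts scaled to library size), for counting error alone. The replicates of each group fell into pairs: libraries 1 and 2 stood apart from libraries 3 and 4 in both groups, and the labels do not say why. The chi-square per gene between replicates was 9 to 40.9 within these pairs and 133 to 346 across them. Several members followed this split, and values within each pair are therefore given beside the pooled ones. Dendritic cell markers (11 genes, led by Cd74 and Csf2rb) summed to 11140 to 22900 CPM in BMDC and to 7610 to 12430 CPM in BMDC-fer. Of these, Flt3 and Ccr7 were called lower in BMDC-fer. Macrophage markers (12 genes, led by Csf1r and C1qb) summed to 2886 to 3649 and to 3436 to 4883 CPM, and Adgre1 was called lower. In either list 0 genes were called higher, and both sums overlapped between the groups. Erythroid markers, which would mark heme-making cells, summed to 1.31 CPM at most, with Hbb-bt and Epor the highest and Slc4a1 at 0 in all 8 libraries. T-cell markers were included because Jurkat is a human T-cell line, whose fragments could be counted on mouse genes. The 17 T-cell markers summed to 43.7 to 49.8 CPM in BMDC and to 36.6 to 57.7 CPM in BMDC-fer, led by Cd28 and Lat. Cd28 alone stood at 27.5 to 53.0 CPM. Of the 17, 10 stayed under 1 CPM in every library, and Rag1, Rag2 and Bcl11b had no count. Only 7 of the 17 were tested, and Lck, Tcf7, Lef1 and Gata3 were called lower in BMDC-fer, beside 5.91% of all tested genes. Of these 4, Lck, Lef1 and Gata3 were at low levels, 0.105 to 1.57 CPM over the 8 libraries. The part of the differences in dendritic cell and macrophage markers in the results below was not tested.

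Of the 10 iron and heme genes, 5 rose in BMDC-fer (Hmox1, Blvrb, Ncoa4, Slc11a1 and Steap3) and the other 5 were not called. Among all 15411 tested genes, 3.47% were called higher, 5.91% lower and 9.38% in either direction. A gene was called where its edgeR quasi-likelihood p, adjusted by Benjamini-Hochberg over all tested genes, was at most 0.05 and its log2 fold change was at least 0.58 in size. The fits within a replicate pair, quoted for single genes below, called far more of all tested genes. The shares were 19.4% within replicates 1 and 2 and 35.7% within replicates 3 and 4. At an unadjusted p under 0.05 in edgeR, 8 members were higher. The share of all tested genes at an unadjusted p under 0.05 is not given here, so such counts are description only. DESeq2 called the same number of members as edgeR, 5, but it called more of all tested genes, 2261 against 1445. In 7 members every BMDC-fer library lay above every BMDC library, against 11.3% of all tested genes (11.6% lay wholly below). The median log2 fold change was 0.87 over the 10 genes and 0.00 over all tested genes. The members and the further gene lists below were chosen with earlier results of these data known. Shares and medians set beside those of all tested genes are therefore description only and do not measure enrichment.

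**Figure D1:**
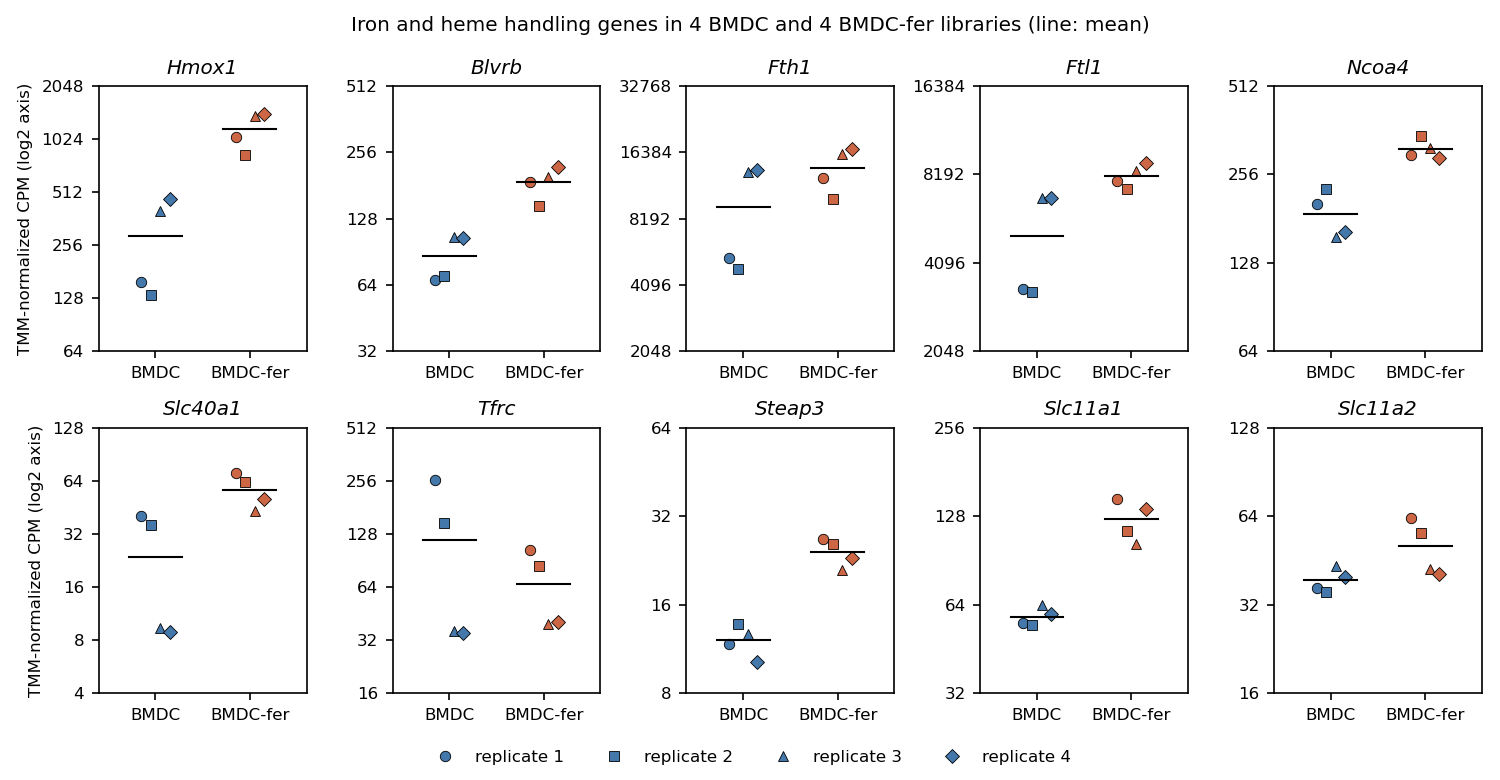
TMM-normalized CPM (y axis, log2 scale) of the 10 genes in each BMDC (blue) and BMDC-fer (red) library, with symbols for the replicate number and a line at the group mean. Hmox1, Blvrb, Ncoa4, Slc11a1, Steap3, Ftl1 and Slc40a1 are separated between the groups, though Ftl1 and Slc40a1 were not called. Hmox1, Fth1, Ftl1, Slc40a1 and Tfrc are split by replicate pair within BMDC, by 2.07-fold to 5.71-fold.

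Of the members, Hmox1 and Blvrb act in heme breakdown, and both rose. Hmox1 encodes heme oxygenase 1, the inducible enzyme that opens the heme ring, and lies at chr8:75093621-75100589 on GRCm38. It was measured at 159, 133, 399 and 470 CPM in BMDC replicates 1 to 4 and at 1048, 836, 1391 and 1417 CPM in BMDC-fer replicates 1 to 4. The lowest BMDC-fer library was thus above the highest BMDC library, although replicates 3 and 4 were the higher ones in both groups. The means were 290.1 ± 169 and 1173 ± 281 CPM (SD, n = 4 each), a 4.04-fold difference. The log2 fold change was 2.02 (SE 0.42, edgeR adjusted p = 0.0215), the largest of the 10. It was 2.70 within replicates 1 and 2 and 1.71 within replicates 3 and 4. Without BMDC-fer replicate 3 the log2 fold change was 1.93 and its edgeR adjusted p 0.0537, and without BMDC-fer replicate 4 they were 1.92 and 0.061.

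Blvrb encodes biliverdin reductase B, which reduces flavins and biliverdin, and lies at chr7:27447978-27466144. Its levels were 67.8, 70.3, 106 and 105 CPM in the BMDC libraries and 187, 147, 199 and 220 CPM in the BMDC-fer libraries. The groups did not overlap, and replicates 3 and 4 were the higher pair in both. The mean rose 2.16-fold, from 87.0 ± 20.8 to 188 ± 30.7 CPM (log2 fold change 1.11, SE 0.19, edgeR adjusted p = 0.011). Their constitutive counterparts were not on the list of 10: Hmox2, the heme oxygenase made without induction, changed by 0.27 on the log2 scale (SE 0.10, edgeR adjusted p = 0.106) and Blvra, the main biliverdin reductase, by 0.36 (SE 0.14, edgeR adjusted p = 0.13). For Hmox2 and Blvra every BMDC-fer library was above the BMDC libraries, but neither gene was called.

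Ferritin stores iron in a shell of heavy and light chains, and its transcripts were the most abundant of the set. Fth1 encodes the heavy chain, which oxidizes iron for storage (chr19:9980598-9985098, IRE shown above). It stood at 5406, 4855, 13310 and 13650 CPM in BMDC and at 12550, 10110, 16060 and 16890 CPM in BMDC-fer. The groups overlapped, since BMDC replicates 3 and 4 were above BMDC-fer replicates 1 and 2. The means were 9306 ± 4829 and 13900 ± 3152 CPM, and the log2 difference was 0.58 (SE 0.39, edgeR adjusted p = 0.345; two-sided exact permutation p = 0.229).

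Ftl1 encodes the light chain, which helps form the mineral core (chr7:45457944-45459884, IRE shown above). Its levels were 3327, 3265, 6822 and 6820 CPM in BMDC and 7803, 7292, 8419 and 8966 CPM in BMDC-fer. All 4 BMDC-fer libraries were above all 4 BMDC libraries, yet the spread within BMDC was wide. The log2 fold change was 0.68 (SE 0.29) and was not called, with an edgeR adjusted p of 0.151. The two-sided exact permutation p was 0.0286, the smallest that 4 against 4 libraries allow.

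Both ferritin chains followed the replicate pairs. In BMDC, replicates 3 and 4 held 2.63-fold more Fth1 and 2.07-fold more Ftl1 than replicates 1 and 2. In BMDC-fer these ratios were 1.45 and 1.15. Within replicates 1 and 2, the log2 fold change of BMDC-fer over BMDC was 1.15 for Fth1 and 1.203 for Ftl1 (edgeR adjusted p = 0.0071 and 0.00365), and within replicates 3 and 4 it was 0.30 and 0.36 (edgeR adjusted p = 0.00194 and 0.000764). Ferritin was thus higher in BMDC-fer within either pair, by unequal amounts, and the difference between the pairs was not tested. With the replicate number as a block, the log2 fold changes were 0.71 for Fth1 and 0.77 for Ftl1. Neither was called (edgeR adjusted p = 0.0846 and 0.0638). Fth1 and Ftl1 together took 0.91% to 1.95% of all counts in BMDC and 1.67% to 2.51% in BMDC-fer. The log2 ratio of Ftl1 to Fth1 was -0.81 in BMDC and -0.75 in BMDC-fer on average, so the chains kept nearly the same proportion in counts.

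Ftl1 counts depend on how reads shared with its copies were assigned, which is not given in the sources used here. Of the 919 stretches of 50 bases in its longest transcript, 78.9% occurred in another gene's transcripts, chiefly Ftl1-ps1, Gm15590 and Ftl2-ps. For Fth1 the share was 2.88%, for Slc11a1 0.71%, and for the other 7 members it was 0. The copies carried counts of their own, with means of 18330 for Ftl1-ps1, 15400 for Ftl2-ps and 2191 for Gm15590, and log2 fold changes of 0.70, 0.50 and 0.62 (edgeR adjusted p = 0.129, 0.213 and 0.16). In a fit blocked on the replicate number, Ftl1-ps1 and Gm15590 were called higher, at 0.79 and 0.68 (edgeR adjusted p = 0.0474 and 0.0286). Of the other rows that share such stretches, Mir692-2, Gm22774 and Gm12164 had mean counts of 426, 373 and 51 and were not called. Summing the copies into Ftl1 gave a value of 0.68 on the same scale (edgeR adjusted p = 0.155), next to the unsummed value. Exons of Gm10252 lie opposite the Ftl1 exons in part, and those of Gm5475 opposite Slc11a2, so that reads of these genes could be told apart only by strand.

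Ncoa4 encodes the cargo receptor that carries ferritin to lysosomes for iron release (chr14:32159865-32179855). It was at 203, 228, 157 and 163 CPM in BMDC and at 298, 347, 316 and 291 CPM in BMDC-fer. The groups did not overlap, and unlike ferritin, BMDC replicates 3 and 4 were the lower pair. The mean rose 1.67-fold, from 188 ± 33.7 to 313 ± 24.8 CPM (log2 fold change 0.74, SE 0.14, edgeR adjusted p = 0.0154). Scaling by total counts in place of TMM gave 0.63 and an adjusted p of 0.0554, just outside the threshold.

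Slc40a1 encodes ferroportin, the iron exporter (chr1:45908068-45926523, IRE shown above). Its levels were 40.7, 35.8, 9.44 and 8.93 CPM in BMDC and 71.2, 62.9, 43.6 and 50.9 CPM in BMDC-fer. Every BMDC-fer library was above every BMDC library, but BMDC itself was split, with replicates 1 and 2 at 4.17 times the level of replicates 3 and 4. The log2 fold change was 1.27 (SE 0.50) and was not called (edgeR adjusted p = 0.13; two-sided exact permutation p = 0.0286). With the replicate number as a block it was 1.57 and was called (edgeR adjusted p = 0.0323), in a fit that called 13% of all tested genes. Within replicates 1 and 2 it was 0.82, and within replicates 3 and 4 it was 2.37 (edgeR adjusted p = 0.0057 and 3.54e-07).

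Tfrc encodes transferrin receptor 1, the entry route of transferrin iron (chr16:32608920-32632794, 4 IREs shown above). It was at 258, 147, 35.98 and 34.99 CPM in BMDC and at 104, 84.4, 39.4 and 40.7 CPM in BMDC-fer. The groups overlapped, and the replicate pairs differed more than the conditions, by 5.71-fold in BMDC and 2.35-fold in BMDC-fer. Its log2 change was -0.83 (SE 0.66, edgeR adjusted p = 0.428; two-sided exact permutation p = 0.6). Without BMDC replicate 1 it was -0.12 (edgeR adjusted p = 0.909). It was -1.10 within replicates 1 and 2 and 0.19 within replicates 3 and 4 (edgeR adjusted p = 0.0226 and 0.0445), so that its direction turned with the pair. Dividing cells take up iron through this receptor, and a list of 13 proliferation genes led by Pcna and Mki67 summed to 1850, 1936, 920 and 900.3 CPM in BMDC and to 1084, 1650, 870 and 801 CPM in BMDC-fer. This sum, too, was higher in replicates 1 and 2. Its part in the Tfrc values was not tested.

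Steap3 encodes the endosomal reductase that turns transferrin iron into the form that transporters carry (chr1:120190757-120272705). It was at 11.8, 13.8, 12.7 and 10.2 CPM in BMDC and at 26.9, 25.8, 21.04 and 23.1 CPM in BMDC-fer. The mean rose 1.99-fold, from 12.1 ± 1.52 to 24.2 ± 2.63 CPM (log2 fold change 0.99, SE 0.14, edgeR adjusted p = 0.00577). The groups did not overlap and the replicate pairs were close, with log2 fold changes of 1.05 and 0.96 within them.

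Slc11a1 encodes NRAMP1, the divalent metal transporter of phagosomes (chr1:74375195-74386062). It was at 55.4, 54.8, 63.8 and 59.8 CPM in BMDC and at 147, 115, 103 and 136 CPM in BMDC-fer. The mean rose 2.14-fold, from 58.4 ± 4.19 to 125 ± 19.97 CPM (log2 fold change 1.10, SE 0.13, edgeR adjusted p = 0.0034), the smallest adjusted p of the 10. It was also the 1 member called when edgeR tested against the fold change threshold itself. These values describe RNA only. Whether the mouse strain used here makes a working NRAMP1 protein was not tested, so no gain in metal transport can be read from them.

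Slc11a2 encodes DMT1, the related transporter that moves iron out of endosomes (chr15:100387898-100425072). It was at 36.5, 35.4, 43.3 and 39.9 CPM in BMDC and at 63.2, 56.3, 42.4 and 40.6 CPM in BMDC-fer. BMDC-fer replicates 3 and 4 lay among the BMDC values, and only replicates 1 and 2 were above them. The log2 fold change was 0.39 (SE 0.16) and was not called (edgeR adjusted p = 0.145; two-sided exact permutation p = 0.114). It was 0.74 within replicates 1 and 2 and 0.01 within replicates 3 and 4 (edgeR adjusted p = 0.0057 and 0.91).

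**Figure D2:**
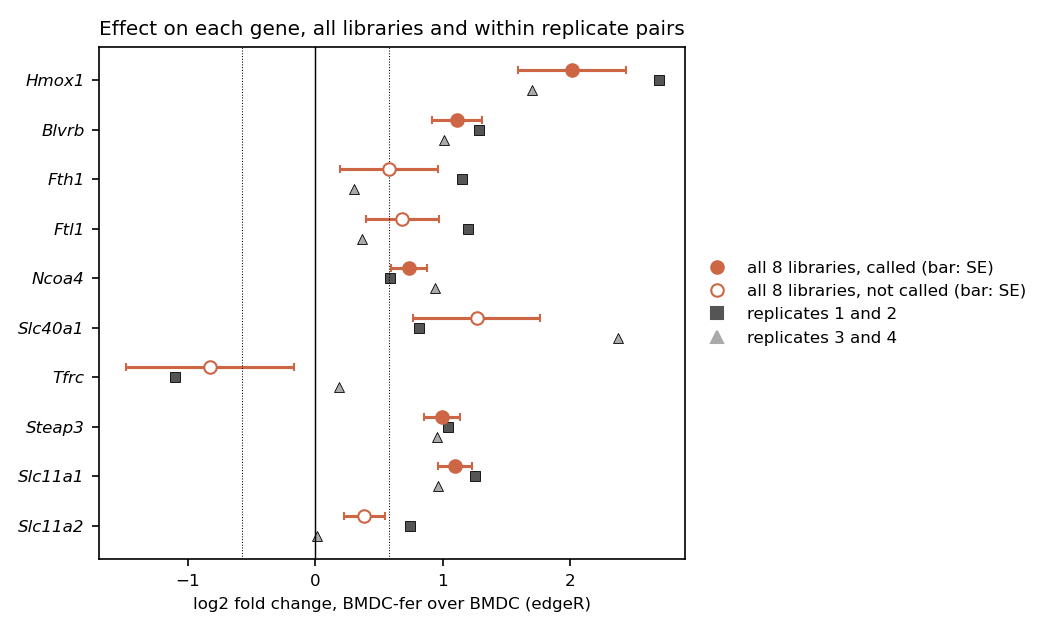
Log2 fold change of BMDC-fer over BMDC (x axis) for each of the 10 genes, over all 8 libraries (circles with SE, filled where called), within replicates 1 and 2 (squares) and within replicates 3 and 4 (triangles); dotted lines mark the threshold of 0.58 in either direction. Blvrb, Steap3 and Slc11a1 had similar values in both pairs, while Slc40a1 had 0.82 and 2.37, and Tfrc lay on either side of 0.

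All 10 genes were called within replicates 1 and 2 (9 higher and Tfrc lower), in a fit that called 19.4% of all tested genes. Within replicates 3 and 4, 6 genes were called, all higher, where 35.7% of all tested genes were called. Those 6 were Slc40a1, Hmox1, Blvrb, Ncoa4, Slc11a1 and Steap3. The 5 genes called over all 8 libraries were also called within either pair. The pairs are parts of the same 8 libraries, so this is not independent support. These fits rest on 2 libraries per group.

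Levels were compared between genes per kilobase of exon (RPKM, from the union of all exons). Ftl1 stood highest, at 3775 ± 1519 RPKM in BMDC and 6060 ± 543 in BMDC-fer, followed by Fth1 at 2683 ± 1392 and 4007 ± 909. These neighbors did not differ beyond their spread in BMDC, and their order turned with the length used: with the length of the principal transcripts, a choice made after the data were seen, Fth1 stood at 7682 and 11470 and Ftl1 at 5226 and 8388. Hmox1 came next at 166 ± 96.7 and 670 ± 160 RPKM, well apart from its neighbors, and Blvrb was at 31.3 ± 7.47 and 67.6 ± 11.0. Ncoa4, Tfrc and Slc11a1 lay close together in BMDC at 20.1 ± 3.60, 19.3 ± 17.2 and 15.8 ± 1.13 RPKM. In BMDC-fer, Slc11a1 and Ncoa4 were at 33.7 ± 5.39 and 33.4 ± 2.65 RPKM, and Tfrc was at 10.8 ± 5.197. Slc11a2 was at 6.10 ± 0.56 and 7.97 ± 1.72, Slc40a1 at 2.64 ± 1.88 and 6.35 ± 1.37, and Steap3 at 2.12 ± 0.27 and 4.23 ± 0.46. With principal lengths, Slc40a1 in BMDC-fer, at 16.95, came above Slc11a2 at 16.7 and Tfrc at 13.7. Transcripts for storing iron thus stood far above those for exporting it in both groups.

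Ratios within a library do not depend on its scaling. The log2 ratio of Slc40a1 to Tfrc, exporter over importer, was -2.67, -2.04, -1.93 and -1.97 in BMDC and -0.54, -0.42, 0.14 and 0.32 in BMDC-fer. The groups did not overlap, and the means differed by 2.03. This ratio was steadier across the BMDC replicates than either gene alone, since both genes were higher in replicates 1 and 2. The log2 ratio of Tfrc to Fth1, uptake over storage, was -4.39, -5.04, -8.53 and -8.61 in BMDC and -6.92, -6.90, -8.67 and -8.70 in BMDC-fer. It was lower in BMDC-fer in each numbered pair, by far more in replicates 1 and 2 than in replicates 3 and 4, and the groups overlapped.

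**Figure D3:**
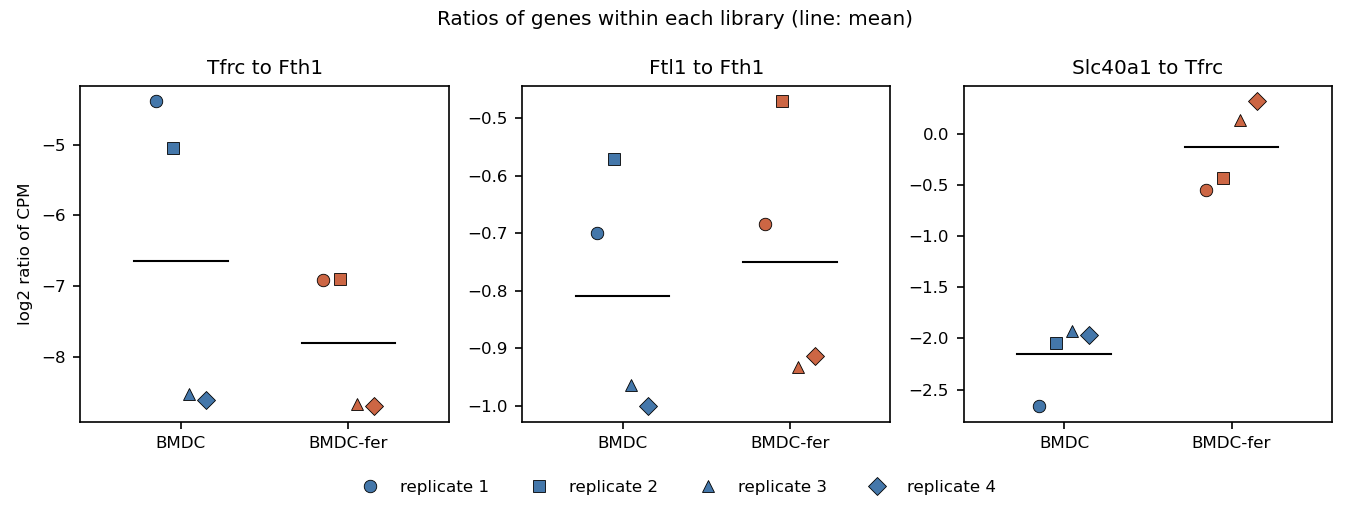
Log2 ratios of CPM between genes of the same library (y axis) in BMDC (blue) and BMDC-fer (red), with symbols for replicate numbers and a line at the mean. Slc40a1 to Tfrc separates the groups with means of -2.15 and -0.13, whereas Tfrc to Fth1 and Ftl1 to Fth1 are split by replicate pair.

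Of 59 other iron and heme genes, 50 were tested, 4 were called higher and 1 lower (edgeR; 14 and 6 at an unadjusted p under 0.05), with a median log2 fold change of 0.18. These 5 calls among 50 genes are a share close to the 9.38% called among all tested genes. Of the 10 genes of heme uptake and transport, Flvcr1, a heme exporter of the cell surface, rose from 30.2 ± 3.24 to 59.3 ± 10.5 CPM (log2 fold change 0.97, SE 0.15, edgeR adjusted p = 0.00722). Slc48a1, which carries heme out of the phagolysosome, rose from 181 ± 26.9 to 326 ± 51.5 CPM (log2 fold change 0.85, SE 0.16, edgeR adjusted p = 0.0131). Of the 8 genes of heme synthesis, Alas1, its rate-limiting enzyme, rose from 198 ± 26.8 to 355 ± 37.0 CPM (log2 fold change 0.84, SE 0.13, edgeR adjusted p = 0.00791). In each of these genes all BMDC-fer libraries were above all BMDC libraries.

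Of the 12 other genes of iron uptake, 7 were tested and 1 was called, Lcn2, beside 9.38% of all tested genes called in either direction. Lcn2 fell from 32.7 ± 22.5 to 4.91 ± 1.68 CPM (log2 fold change -2.73, SE 0.59, edgeR adjusted p = 0.0235). Lcn2 encodes lipocalin 2, a siderophore-binding protein abundant in neutrophils. Neutrophil markers (8 genes, led by S100a8 and S100a9, 4 of them lower) summed to 261, 44.8, 230.4 and 59.4 CPM in BMDC and to 43.7, 13.9, 19.2 and 18.6 CPM in BMDC-fer. Their part in the Lcn2 values was not tested. Lcn2 lost its call when BMDC replicate 3 or 4 or BMDC-fer replicate 2, 3 or 4 was left out (edgeR adjusted p = 0.0501, 0.0506, 0.0649, 0.0569 and 0.0752), with log2 fold changes of -2.34 to -2.83. Within replicates 1 and 2 the log2 fold change was -1.53 and was not called (edgeR adjusted p = 0.0803), and within replicates 3 and 4 it was -3.33. The 10 genes of mitochondrial iron and iron-sulfur clusters had a median log2 fold change of -0.12. Both edgeR and DESeq2 called 0 of them, a count not far from the 9.38% of all tested genes called in edgeR. At an unadjusted p under 0.05, 1 was higher and 1 lower in edgeR, and 1 and 2 in DESeq2. Slc25a28 was called lower with total counts, without BMDC replicate 2, and within replicates 3 and 4 (-0.91). Slc25a37 was called higher within replicates 1 and 2 (0.81).

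**Figure D4:**
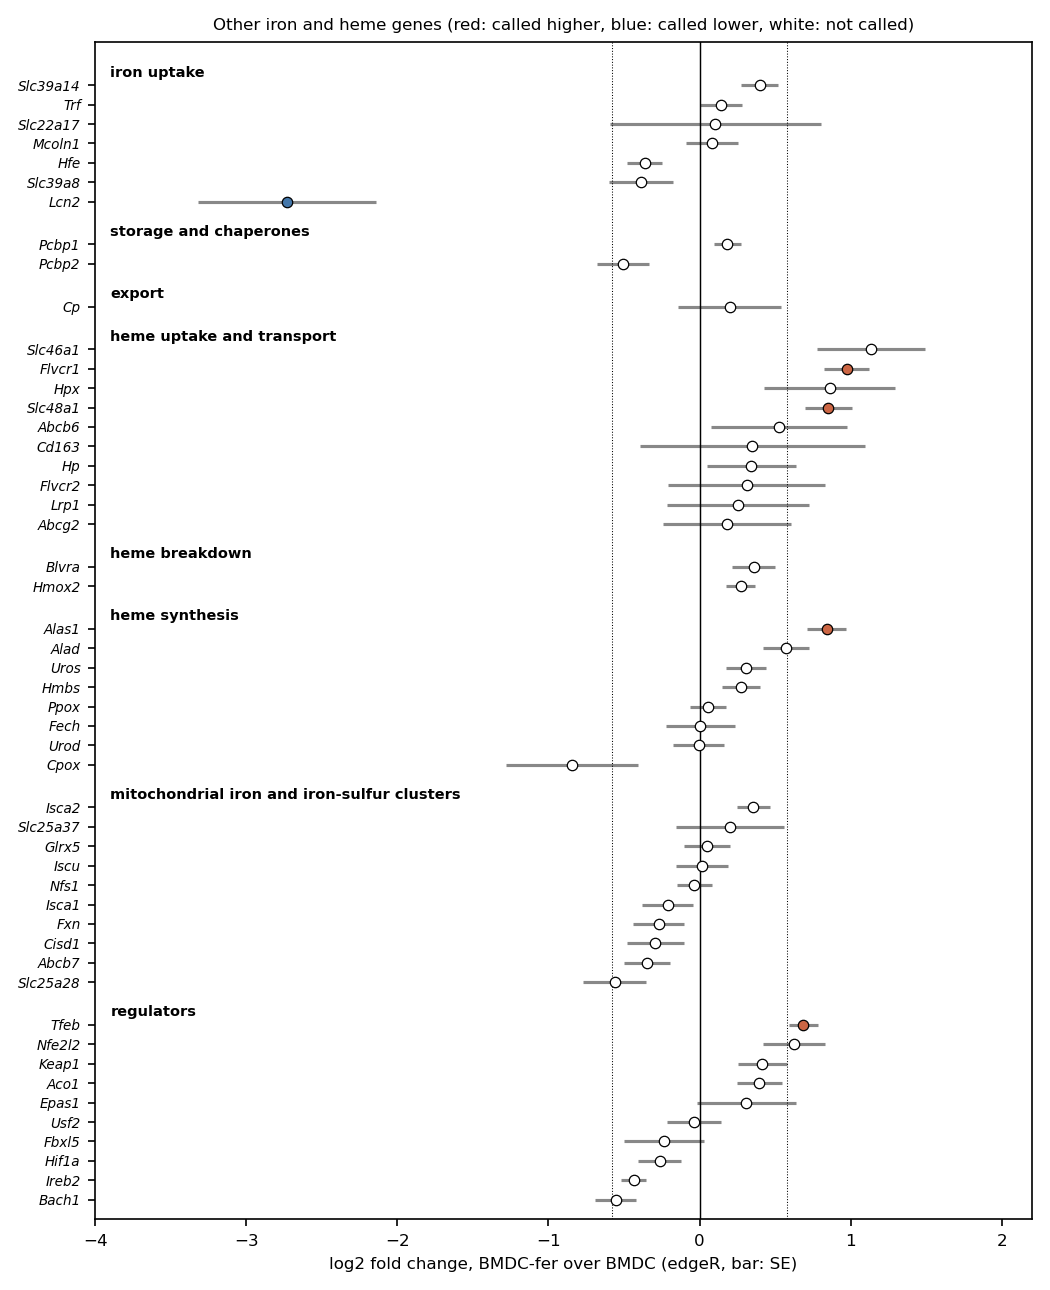
Log2 fold change of BMDC-fer over BMDC (x axis, with SE) for the 50 tested genes of the other iron and heme list, grouped by role. Flvcr1, Slc48a1, Alas1 and Tfeb were called higher (red), Lcn2 lower (blue), and the other 45 were not called (white).

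Among the 10 regulators 1 was called, close to the 9.38% of all tested genes. Tfeb, a transcription factor that drives lysosome genes, rose from 36.6 ± 2.60 to 59.0 ± 3.77 CPM (log2 fold change 0.69, SE 0.10, edgeR adjusted p = 0.00577). Ireb2 encodes IRP2, one of the proteins that bind the hairpins shown above. It was at 77.3, 82.0, 80.5 and 81.0 CPM in BMDC and at 56.9, 57.6, 63.7 and 59.0 CPM in BMDC-fer, with little spread and no overlap. Its log2 fold change of -0.44 (SE 0.08, edgeR adjusted p = 0.0146) passed the p threshold but not the fold threshold. Aco1, which encodes IRP1, stood at 0.40 on the log2 scale (SE 0.15, edgeR adjusted p = 0.118). Fbxl5, which encodes the iron sensor that marks IRP2 for degradation, stood at -0.24 (SE 0.26, edgeR adjusted p = 0.575), and its sign turned within replicates 1 and 2, to 0.17, and without BMDC replicate 4, to 0.002.

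Bach1 encodes the repressor of Hmox1 and of the ferritin genes that heme inactivates. It was at 83.8, 93.7, 128 and 115 CPM in BMDC and at 70.6, 74.2, 72.1 and 68.6 CPM in BMDC-fer, without overlap. Its log2 fold change of -0.56 (SE 0.14, edgeR adjusted p = 0.0352) fell short of the fold threshold. With total counts in place of TMM it was -0.63 and was called (edgeR adjusted p = 0.00969). It was also called without BMDC replicate 1 (-0.64) or without BMDC replicate 2 (-0.60). Leaving out any other single library gave an edgeR adjusted p of 0.073 to 0.101. Within replicates 1 and 2 the log2 fold change of Bach1 was -0.29 and was not called (edgeR adjusted p = 0.0762). Within replicates 3 and 4 it was -0.77 and was called (edgeR adjusted p = 2.61e-05). Nfe2l2, which encodes NRF2, was at 231, 249, 143 and 142 CPM in BMDC and at 315, 323, 272 and 270.1 CPM in BMDC-fer, again without overlap. Its log2 fold change was 0.63 (SE 0.21) and was not called (edgeR adjusted p = 0.0802), but with the replicate number as a block it was 0.67 and was called (edgeR adjusted p = 0.0277).

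NRF2 also drives genes outside iron metabolism, and 18 of these were examined beside the iron genes. Of these, 4 were called higher, against 3.47% of all tested genes, and 14 were not called, and the median log2 fold change was 0.40. The 4 were Nqo1, a quinone reductase (2.16, SE 0.45, edgeR adjusted p = 0.0204), Me1, malic enzyme (1.93, SE 0.38, adjusted p = 0.0161), Srxn1, sulfiredoxin (1.17, SE 0.32, adjusted p = 0.0481), and G6pdx, the first enzyme of the pentose phosphate pathway (0.60, SE 0.10, adjusted p = 0.0109). Nqo1 was at 11.0 to 14.7 CPM in BMDC and at 29.3, 21.9, 95.9 and 75.1 CPM in BMDC-fer, so that its largest values were in BMDC-fer replicates 3 and 4. Blocking on the replicate number, edgeR called 7 of the 18 genes, all higher, where 13% of all tested genes were called. The count depended on single libraries: it was 1 without BMDC replicate 3, 2 without BMDC replicate 4 or BMDC-fer replicate 3, and 0 without BMDC-fer replicate 4, where 8 were higher at an unadjusted p under 0.05 in edgeR.

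For 3 members the genes with the most similar profile were sought among the 12750 tested genes with a mean of at least 1 CPM, by the root mean square difference of log2(CPM + 0.05) after centering each gene on its own mean over the 8 libraries. Closest to Hmox1 were Plin2, which encodes a lipid droplet coat protein, at 0.27, Dok7 at 0.31 and Gnat3 at 0.35. Plin2 was at 210.0, 215, 618 and 644 CPM in BMDC and at 1013, 959, 1489 and 1393 CPM in BMDC-fer, a profile with both the difference between groups and the lift of replicates 3 and 4. Closest to Slc40a1 were Tha1 at 0.15, and P2ry6, which encodes a nucleotide receptor, and Armc6 at 0.19 each. Closest to Tfrc were Tnfsf8, which encodes the CD30 ligand, at 0.24, Mboat1 at 0.26 and Neurl1b at 0.26. These distances describe 8 libraries that share their replicate pairs.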

How the data were processed

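Poly(A)-enriched RNA of 4 BMDC and 4 BMDC-fer samples was sequenced. HISAT2 for mapping and featureCounts for counting were the authors' tools, and the deposited values are raw counts per mouse gene. The labels name the mouse build mm10 (GRCm38). The annotation, the strand setting and the treatment of multi-mapping reads are not given in the sources used here, and human counts were not analysed here. Every count column matched 1 sample label.

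The counts were fitted with edgeR 4.0.16 in R 4.3.3 (TMM, filterByExpr with a count minimum of 10, about 0.236 CPM) and quasi-likelihood tests with Benjamini-Hochberg adjustment over the 15411 genes kept. Calls needed an adjusted p of at most 0.05 and a log2 fold change of at least 0.58 in size. Single genes were also compared by two-sided exact permutation of log2(CPM + 0.05). The tests were tried on simulated counts. Symbols, exons and hairpins came from GENCODE M21, which named 55227 of 55487 identifiers.

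The replicate numbers come from the labels. Across genes, the libraries' deviations from their group mean correlated at 0.446, 0.355, 0.313 and 0.343 between libraries with the same number. The numbers entered as a pairing only in the fit with the replicate block. The main fit and the exact permutation took the groups as unpaired. Differently numbered libraries within 1 and 2 or within 3 and 4 correlated at 0.186 to 0.38, and those across this split at -0.388 to -0.279, so the correlations do not single out the numbers within it. The labels do not say whether samples came from separate animals, and p-values then measure the spread between these samples only.

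Members and gene lists were chosen with earlier results of these data known. The genes named are the members, the called genes of both further lists, 5 regulators, ferritin copies with a mean count of 10 or more, the 3 genes most like Hmox1, Slc40a1 and Tfrc, and the 2 highest markers of each cell type described. Hmox2, Blvra, Slc46a1, Slc25a28, Slc25a37, Gclm, Flt3, Ccr7, Adgre1, Lck, Tcf7, Lef1, Gata3 and markers at 0 were named after their values were seen. Alternatives were DESeq2 1.42.0, RLE factors, total counts, the replicate block, other filters, leaving out each library, each replicate pair alone, other uses of the fold threshold, and ferritin rows summed with copies or left out of library sizes. Added after the data were seen were the same alternatives for the NRF2 list and for named genes that are not members, a wider set of ferritin copies, and principal transcript lengths.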

Additional observations from a re-analysis of the deposited data

How the results depend on the processing

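Blvrb, Slc11a1 and Steap3 kept their direction and their call in 17 alternatives, as did Flvcr1, Slc48a1, Alas1 and Tfeb. These 17 leave out the 2 other uses of the fold threshold. In the test against that threshold, Slc11a1 alone of these genes was called. Over the 17, log2 fold changes lay between 1.01 and 1.28 for Blvrb, 0.96 and 1.25 for Slc11a1, and 0.90 and 1.07 for Steap3. The number of members called was 10 with replicates 1 and 2 only and 1 with glmTreat, which tests against the fold threshold, and 4 to 5 with a library left out. The number of other iron and heme genes called, 5, became 11 with replicates 1 and 2 only, 14 with replicates 3 and 4 only, 8 with no fold threshold and 0 in the test against it (4 higher and 1 lower at an unadjusted p under 0.05). It was 4 to 9 with a library left out, and 9 without BMDC replicate 2. Over all tested genes 1445 were called, against 2261 with DESeq2, 3062 with replicates 1 and 2, 5604 with replicates 3 and 4 and 225 in the test against the threshold, and 565 to 1440 with a library left out (565 without BMDC-fer replicate 4). With the replicate block, 6 members, 7 other iron and heme genes and 2000 of all genes were called. The calls the block added to the named genes were those of Slc40a1, Nfe2l2, Slc46a1 (1.13), Gclm (1.16), Ftl1-ps1 and Gm15590. It changed no other call among the members, the 5 named regulators and the genes called without it. Total counts in place of TMM moved the split of all calls from 534 higher and 911 lower to 300 and 1179. Tfrc turned to 0.19 with replicates 3 and 4 only, and Fbxl5 to 0.17 with replicates 1 and 2 only and lay between -0.39 and 0.002 with a library left out (0.002 without BMDC replicate 4). The cause was not tested. With 2 libraries per group in the fits within pairs, values there rest on few samples.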
